A study of Mus musculus with 2 samples.

Results

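A set of 7 miRNA genes known from blood cells and microglia, of the 1973 miRNA genes in the count tables, was followed in embryonic mouse neural tube. They were taken by gene symbol: Mir451a, Mir144 and Mir486 for red cells (3 genes), and Mir142b, Mir223, Mir150 and Mir155 for leukocytes and microglia (4 genes). Neural tube, the tissue that forms brain and spinal cord, came from healthy B6NCrl embryos aged 15.5 days, males and females pooled. The study holds 1 group of 2 libraries, each labelled a biological replicate: library 1 from a pool of 78 embryos and library 2 from a pool of 62. The labels name no treatment, genotype contrast or second tissue, so the data give the levels of these genes and the difference between the pools.

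The genes followed here are known from blood cells, which enter neural tissue rather than arise from it. Bulk libraries do not show which cells the reads came from. Red cell precursors make miR-451 and miR-144 from a shared precursor transcript under GATA1, and miR-486 from within the ankyrin gene Ank1. Leukocytes of nearly all lineages make miR-142; miR-223 belongs to granulocytes and other myeloid cells, miR-150 to mature lymphocytes and miR-155 to activated lymphocytes and macrophages. Microglia, the resident macrophages of the central nervous system, descend from yolk sac progenitors and colonise it before birth, so that an embryonic neural tube can hold both circulating and resident blood cells. The genes followed here do not tell microglia from circulating leukocytes.

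The mature sequences in RefSeq (GRCm38.p6, the assembly of mm10) are given here because each class is read through them, 5′ to 3′, with the seed, bases 2 to 8, in capitals. The table held a mature sequence for 6 of the 7 members. Mir486 had none and Mir150 had only its 3p product, so the statements on seeds and GC content leave out miR-150-5p.
miR-451a: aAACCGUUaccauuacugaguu
miR-144-3p: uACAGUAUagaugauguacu
miR-142a-3p (Mir142): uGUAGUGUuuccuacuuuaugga
miR-142a-5p (Mir142): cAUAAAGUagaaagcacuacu
miR-142b (Mir142b): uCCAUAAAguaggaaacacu
miR-223-3p: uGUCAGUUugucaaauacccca
miR-150-3p: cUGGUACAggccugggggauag
miR-155-5p: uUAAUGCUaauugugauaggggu

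The seeds were all different. Over the 11 mature sequences of these genes and Mir142, each seed occurred in 0 other genes of the RefSeq table, where 68.0% of 1738 mature sequences have a seed that is found in a single gene. Lengths ran from 20 to 23 bases, so levels of different genes were compared as read counts with no scaling for length. Of the 11 sequences, 10 had a lower GC content than the median of 52.2% over the table; miR-144-3p had the lowest with 30.0% and miR-150-3p the highest with 63.6%. The counts are given per gene, and the arm from which a read came cannot be told from them.

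The red cell gene Mir451a carries its product across the turn of the hairpin, a form known to be cut by Ago2 in place of Dicer. In the precursor below, with the mature part in capitals, that part runs from base 17 to base 38 of 72, past the middle. Of 1635 mature sequences that could be placed in their hairpin, 14 (0.856%) ran across its middle.
Mir451a: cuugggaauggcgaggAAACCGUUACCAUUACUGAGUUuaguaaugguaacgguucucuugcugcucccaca
The Mir142 precursor, with its 5p and 3p products in capitals, is shown because Mir142 had no entry in the count tables.
Mir142: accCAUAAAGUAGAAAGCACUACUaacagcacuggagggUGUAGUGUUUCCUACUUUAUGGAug

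The genes lie at these places on mm10 by GENCODE M21. Mir144 (ENSMUSG00000065401.1, chr11:78073005-78073070) and Mir451a (ENSMUSG00000070065.1, chr11:78073170-78073241) sit on the plus strand 99 bases apart, in no other annotated gene on that strand. Mir486 (ENSMUSG00000070084.3, chr8:23142555-23142682, plus strand) lies in an intron of Ank1. Mir223 (ENSMUSG00000076066.1, chrX:96242817-96242926, plus strand) overlaps an exon of the non-coding gene F630028O10Rik, and Mir155 (ENSMUSG00000065397.1, chr16:84714140-84714204, plus strand) overlaps an exon of its host Mir155hg. Mir150 (ENSMUSG00000065495.1, chr7:45121757-45121821, plus strand) overlaps no other annotated gene.

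Mir142b (ENSMUSG00000065420.2, chr11:87756841-87756955) is annotated on the minus strand, and Mir142 (chr11:87756864-87756927), the precursor known from leukocytes, lies inside its span on the plus strand in an intron of Mir142hg. The products miR-142b and miR-142a-3p come from opposite strands of the same bases. On the strand of Mir142b itself 0 reads were counted in both libraries. On the opposite strand there were 5684 reads in library 1 and 975 in library 2. These reads lie on the strand of Mir142 and are given below as the level of Mir142b. They enter the level of that gene but not the library total. Of the genes in the tables, 11 had more reads on the opposite strand than on their own, with at least 10 there in each library, and Mir142b held the sixth highest opposite-strand count (rank 6). The 5 above it were Gm25927, Gm24321, Gm25252, Gm25301 and Gm24083, each with 0 reads on its own strand.

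Mir451b lies opposite Mir451a, and Mir3107 lies opposite Mir486; neither had an entry in the tables. Opposite Mir451a 0 reads were counted in both libraries. Opposite Mir486 there were 4 and 8. Reads that aligned to several places, 29.4% and 29.7% of all reads in libraries 1 and 2, were assigned to no gene. Mir486 and Mir3107 are known to share their main product, so the Mir486 level may be too low, and how many of its reads were set aside was not tested. For the members with a mature sequence in the table, that sequence occurred in 0 other hairpins.

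Of the red cell genes, Mir451a and Mir486 lay at nearly the same level in both pools and Mir144 was somewhat higher in library 1. Mir451a, the most abundant miRNA of red cells, was read 604 times in library 1 and 836 times in library 2. Scaled to the sense-strand counts of all miRNA genes, as counts per 1000000 (CPM), this gave 142.8 and 138.4 CPM. The exact Poisson intervals at 95%, 132 to 155 and 129 to 148 CPM, overlapped. Library 1 was 1.01-fold of library 2 (95% exact interval 0.906 to 1.12), with library sizes scaled by TMM as for all ratios here. The 364 genes with at least 10 counts in each library were compared by a two-sided exact binomial test, adjusted by Benjamini-Hochberg over all of them, in which Mir451a was not called (adjusted p = 0.946). The test speaks of these pools only, and the spread it knows is that of counting.

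Mir144, the partner of Mir451a on the same transcript, was lower in level and less even. Its 150 and 140 counts in libraries 1 and 2 gave 35.5 and 23.2 CPM, with intervals of 30.0 to 41.6 and 19.5 to 27.4 CPM that did not overlap. It was 1.49-fold higher in library 1 (1.18 to 1.90; exact binomial test, adjusted p = 0.00179). Mir451a was thus 4.03 times Mir144 in library 1 (95% counting interval 3.36 to 4.85) and 5.97 times in library 2 (4.99 to 7.19), intervals that do not overlap.

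Mir486, which is abundant in maturing red cells, had the lowest mean of the 7 genes in reads assigned to a gene, with the limit given above for its shared reads. With 101 counts in library 1 and 129 in library 2 it reached 23.9 and 21.4 CPM, and its intervals of 19.5 to 29.0 and 17.8 to 25.4 CPM overlapped. The ratio of 1.09 (0.833 to 1.43) was not called (exact binomial test, adjusted p = 0.648). Mir451a was 5.98 times Mir486 in library 1 (4.84 to 7.46) and 6.48 times in library 2 (5.38 to 7.86), intervals that overlap.

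Summed over the 3 red cell genes, the level was 202.2 CPM for library 1 and 183 CPM for library 2, or 193 ± 13.6 CPM (SD, n = 2). The sums differed 1.08-fold with an interval that includes 1 (0.986 to 1.18). In order of mean level, Mir451a had 141 ± 3.13 CPM, Mir144 29.3 ± 8.69 CPM and Mir486 22.6 ± 1.79 CPM. Mir451a stood above the other two by more than their spread, while Mir144 and Mir486 did not differ beyond theirs. Within library 1 the counting interval of Mir144 lay above that of Mir486, and within library 2 the intervals overlapped. The place of Mir486 in this order, like its ratio to Mir451a, holds only for reads that were assigned to a gene.

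Of the 4 leukocyte genes, 3 were higher in library 1, by factors that differed from gene to gene, and Mir150 was not called. Of all 364 genes compared, 25.8% were called higher in library 1. The pan-leukocyte reads counted at Mir142b reached 1344 CPM in library 1 but 161 CPM in library 2, with intervals of 1309 to 1380 and 151 to 172 CPM. Library 1 was high and library 2 low, and the pools were far apart: the ratio was 8.13-fold (7.60 to 8.71), or 3.02 on the log2 scale, and the gene was called. In bulk tissue, more cells of a type and more of a miRNA per cell cannot be told apart.

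Mir223, the myeloid miRNA, had 861 and 627 counts, or 203.6 CPM for library 1 and 104 CPM for library 2. Its intervals of 190.2 to 218 and 95.8 to 112 CPM did not overlap, and it was 1.92-fold higher in library 1 (1.73 to 2.13; exact binomial test, adjusted p = 7.99e-35). Mir155, induced in activated macrophages and lymphocytes, had 668 and 403 counts, or 158 CPM for library 1 and 66.7 CPM for library 2. It too was high in library 1 with no overlap of the intervals, at 2.31-fold (2.04 to 2.62; exact binomial test, adjusted p = 6.52e-41).

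Mir150, the miRNA of mature lymphocytes, was level between the pools within counting error. Its 302 and 402 counts came to 71.4 and 66.6 CPM, with overlapping intervals of 63.6 to 79.9 and 60.2 to 73.4 CPM. Its ratio of 1.05 (0.900 to 1.22) had an adjusted p of 0.679 in the exact binomial test.

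**Figure D1:**
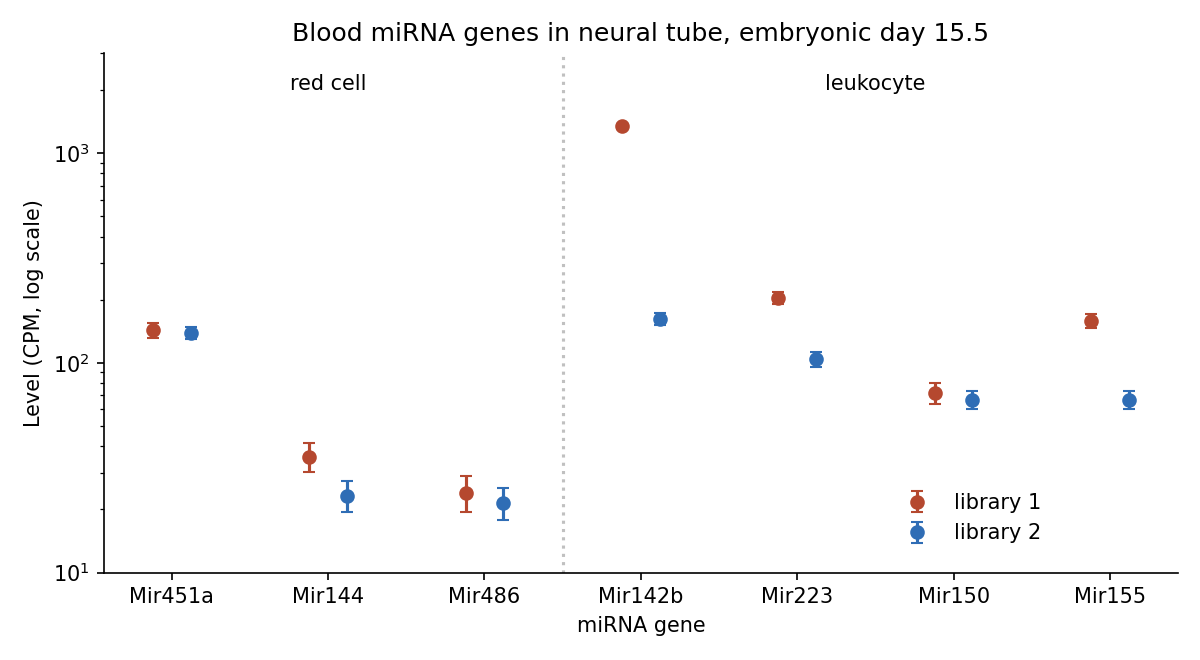
Level of each gene in CPM (log axis) in library 1 and library 2; points are single libraries and bars are 95% exact Poisson counting intervals. Mir451a, Mir486 and Mir150 lie at the same height in both libraries within the bars, while Mir142b stands at 1344 CPM in library 1 and 161 CPM in library 2.

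Against the rest of the miRNA genes, the binomial test called 50% of the 364 genes in either direction, 25.8% as higher in library 1 and 24.2% as higher in library 2. Of the 7 members 4 were called, all 4 higher in library 1 (Mir144, Mir142b, Mir223 and Mir155) and 0 higher in library 2. A difference of at least 2-fold toward library 1 was called for 5.77% of the genes, and for 2 of the 7 members, Mir142b and Mir155. All 7 members passed the minimum of 10 counts in each library.

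Over all 364 genes the log2 ratios ran from -0.16 at the lower to 0.25 at the upper quartile, around a median of -0.0032. The median of the 7 members was 0.58. Ranked from the highest ratio, Mir142b was 8th, Mir155 19th, Mir223 26th and Mir144 45th of 364, while Mir486 was 121st, Mir150 150th and Mir451a 174th. The 7 genes above Mir142b were Mir141, Mir200a, Mir200b, Mir200c, Mir429 and Mir205 of the epithelial list and Mir215, a miRNA of gut and kidney, named for that rank after the values were seen.

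**Figure D2:**
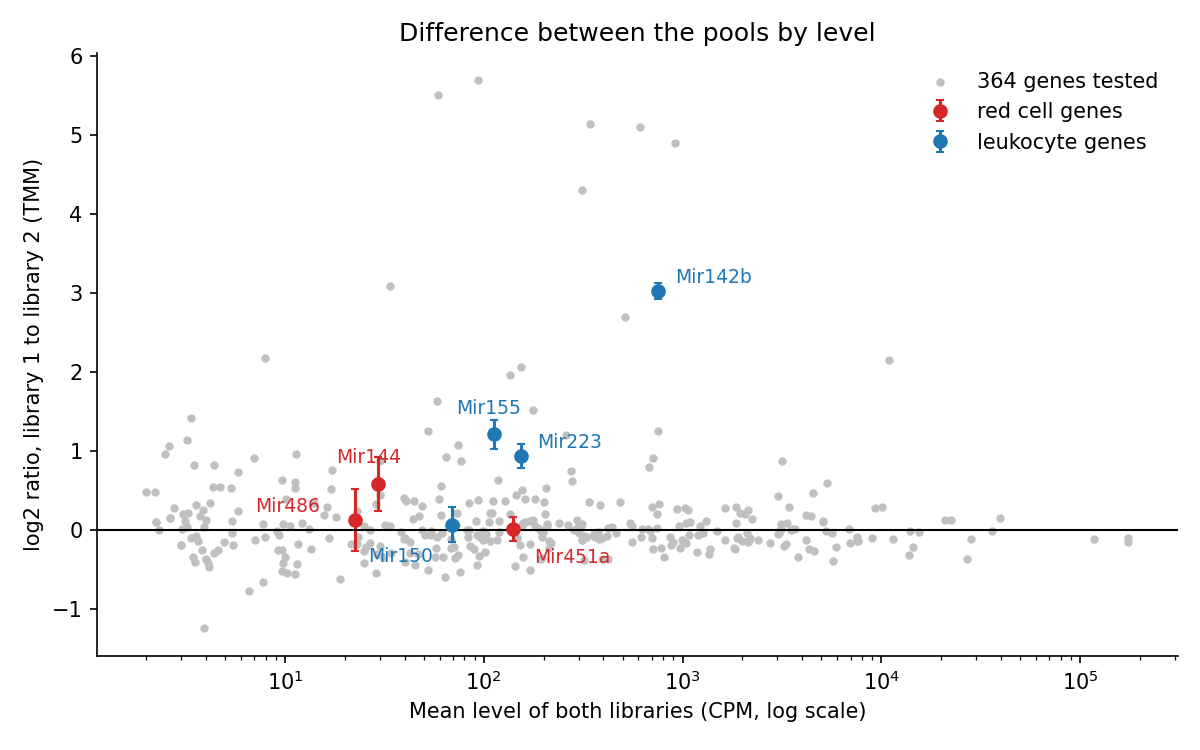
Log2 ratio of library 1 to library 2 (TMM scaling) against the mean level in CPM (log axis) for 364 genes (grey), with the red cell and leukocyte genes and their 95% exact intervals. Mir451a, Mir486 and Mir150 lie at 0.01, 0.13 and 0.07, Mir144 at 0.58, and Mir142b at 3.02.

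Summed over the 4 leukocyte genes, the level was 1777 CPM in library 1 (1737 to 1818) and 399 CPM in library 2 (383 to 415), a 4.36-fold difference (4.16 to 4.56). Most of that came from Mir142b: without it the sums were 433 and 237 CPM and the ratio was 1.78 (1.66 to 1.91). With n = 2 the mean of 1088 ± 975 CPM describes neither pool. The order of the means was Mir142b with 753 ± 836 CPM, Mir223 with 154 ± 70.6, Mir155 with 112 ± 64.5 and Mir150 with 69.0 ± 3.44 CPM, and no neighbours in that order differed beyond their spread. Within each library Mir142b was above Mir223 and Mir223 above the others beyond counting error. In library 2 Mir155 and Mir150 were level.

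The make-up of the leukocyte reads differed between the pools. Mir142b held 75.6% of them in library 1, with a 95% Wilson interval of 74.7 to 76.6, but 40.5% (38.6 to 42.5) in library 2. Mir223 went from 11.5% (10.8 to 12.2) in library 1 to 26.0% (24.3 to 27.8) in library 2. Mir150 held 4.02% and 16.7%, and Mir155 8.89% and 16.7%. Shares within a class are tied to each other, so a lower share of Mir142b raises the others. By level, Mir223 (203.6 CPM in library 1, 104 in library 2) and Mir155 (158 and 66.7) were lower in library 2. The level of Mir150 was alike in both within counting error. Measured against Mir223 in the same library, which needs no scaling, Mir142b was 6.60 times as abundant in library 1 (6.14 to 7.10) and 1.56 times in library 2 (1.41 to 1.72). Mir155 was 0.776 times Mir223 in library 1 (0.700 to 0.859) and 0.643 times in library 2 (0.566 to 0.730), intervals that overlap. Mir150 was 0.351 times Mir223 in library 1 (0.307 to 0.400) and 0.641 times in library 2 (0.564 to 0.728), intervals that do not.

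Among the red cell reads Mir451a held 70.6% (67.5 to 73.6) in library 1 and 75.7% (73.0 to 78.1) in library 2, intervals that overlap. Mir144 held 17.5% (15.1 to 20.2) and 12.7% (10.8 to 14.8), which do not, and Mir486 held 11.8% and 11.7%.

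**Figure D3:**
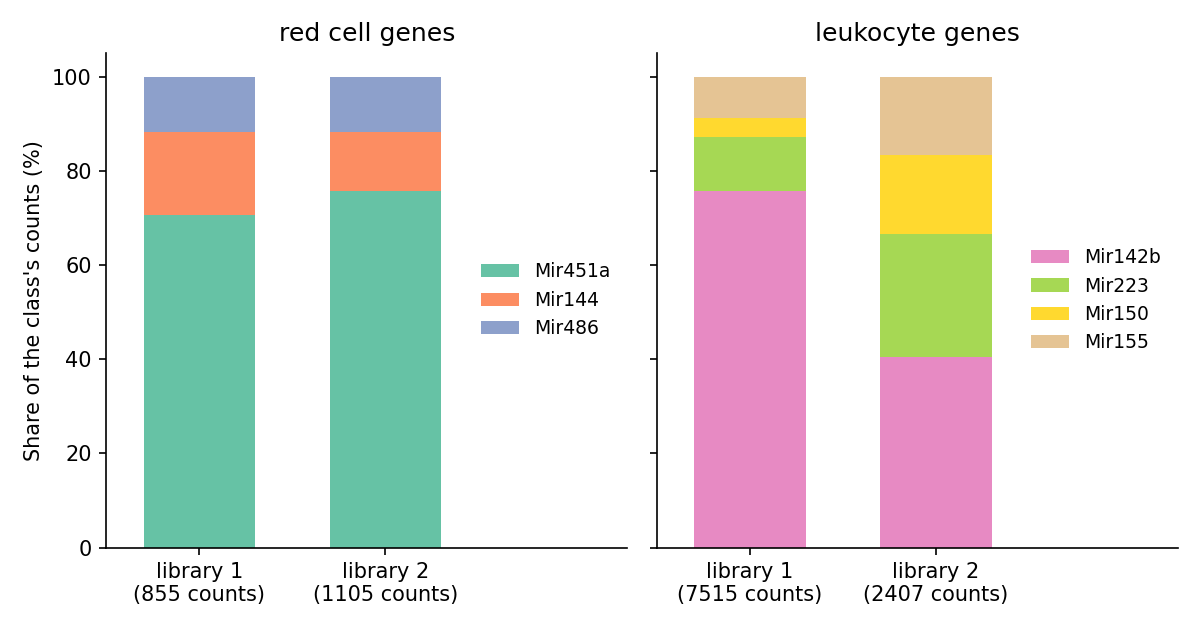
Share of each gene, in percent, in the summed counts of the red cell class (left) and the leukocyte class (right) for each library. Mir142b fills 75.6% of the leukocyte counts of library 1 and 40.5% of those of library 2, while Mir451a fills 70.6% and 75.7% of the red cell counts.

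Among reads assigned to a gene, leukocyte counts outnumbered red cell counts in both pools. The ratio was 8.79 in library 1 (95% counting interval 8.19 to 9.44) and 2.18 in library 2 (2.03 to 2.34). On the log2 scale it was 3.14 and 1.12, with a mean of 2.13 ± 1.42 (n = 2). Without Mir142b the ratio was 2.14 in library 1 (1.97 to 2.33) and 1.30 in library 2 (1.20 to 1.40). The Mir486 level in the red cell sum may be too low, as given above for its shared reads, and these ratios may then be too high. How far this changes them was not tested. Different miRNAs are captured with different efficiency, so such a ratio of reads is not a ratio of cells.

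Markers of other cell types that moved between the pools are given here beside the leukocyte difference. The epithelial list was 8.45-fold higher in library 1 (8.17 to 8.75), at 5458 and 631 CPM, with 7 of 7 members called in that direction. The mesenchyme and smooth muscle list was 2.88-fold higher (2.85 to 2.92), at 22420 and 7594 CPM, with 5 of its 7 members higher in library 1, 1 higher in library 2 and 1 below the count minimum. Over all 364 genes tested, 25.8% were called higher in library 1 and 24.2% higher in library 2. The part of these lists in the leukocyte result was not tested.

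Lists tied to blood vessels and to the liver, each with 1 gene entered, stayed close. The endothelial gene Mir126a had 22011 and 19666 CPM, and Mir126b had no entry. The small difference of Mir126a was called as higher in library 1 (1.09-fold, 1.08 to 1.10; exact binomial test, adjusted p = 9.96e-91). The hepatocyte gene Mir122 had 66.0 and 56.3 CPM (1.14-fold, 0.974 to 1.35; exact binomial test, adjusted p = 0.161). The neuron and spinal cord list was 0.920-fold (0.909 to 0.931) at 10279 and 10910 CPM, with 2 of 7 tested genes higher in library 2 and 5 not called. Its defining Mir124a genes had 2 to 17 counts a library and were not tested; they are known to share their product, and multimapping reads were set aside. The oligodendrocyte list had 2095 and 2327 CPM, with 1 of 3 genes higher in library 2. Of all genes tested, 24.2% were called higher in library 2, beside which these short lists do not stand out. In the striated muscle list Mir206 held nearly all counts assigned to a gene, with 283 and 360 CPM, and Mir133a-1 and Mir133a-2 were at 0. Multimapping reads were set aside here too, so a count of 0 does not show that the miRNA was absent. Beside these, the red cell sum differed 1.08-fold between the pools and the leukocyte sum 4.36-fold, or 1.78-fold without Mir142b.

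**Figure D4:**
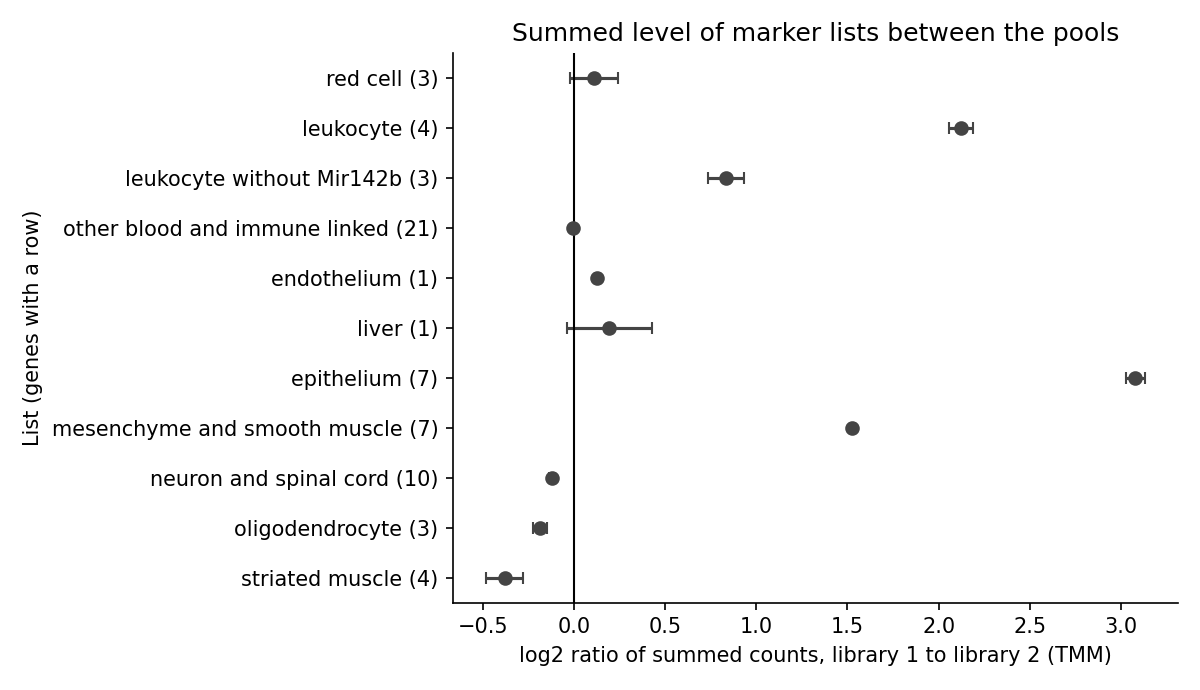
Log2 ratio of summed counts, library 1 to library 2 (TMM scaling), for the red cell and leukocyte genes and for lists of other cell types; bars are 95% exact counting intervals and the number of genes with an entry is in brackets. The red cell, endothelial and liver sums lie near 0, and the leukocyte sum at 2.12 lies between the mesenchyme list at 1.53 and the epithelial list at 3.08. Without Mir142b the leukocyte sum lies at 0.835, below the mesenchyme list.

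Other miRNA genes linked to blood and immune cells were called in both directions. Of 21 such genes 19 were tested, with 9 higher in library 1, 6 in library 2 and 4 not called. Over all genes tested, 25.8% were higher in library 1 and 24.2% in library 2. The sum of the 21 genes was nearly equal at 24050 and 23571 CPM (0.997-fold, 0.989 to 1.00). Mir342, Mir181d, Mir21a, Mir181a-1 and Mir22 carried most of it, so it says little of the genes at lower levels. Mir21a, induced in inflammation, had 4124 and 2195 CPM and was 1.83-fold higher in library 1 (1.79 to 1.88). Mir147, induced by Toll-like receptor signalling in macrophages, was 4.51-fold higher (2.58 to 8.30), from 55 and 17 counts. Mir146, a brake on NF-kB signalling, went the other way with 66.9 and 81.5 CPM (0.802-fold, 0.691 to 0.931). Mir342, hosted by Evl and known from lymphoid and myeloid cells, had 4242 and 4980 CPM (0.832-fold, 0.817 to 0.848). The macrophage gene Mir511, which lies in the mannose receptor gene, had 6 counts in each library and Mir146b had 4 and 10, too few to test.

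With 2 libraries the likeness of another gene to a member is a single number, its difference in log2 ratio. Among 264 other genes with at least 100 counts in each library, Mir375, known from endocrine cells and gut, came nearest to Mir142b with a log2 ratio of 2.69 against 3.02. Mir106a came nearest to Mir155 (1.21 for both), Mir31 to Mir223 (0.92 against 0.94), and Mir181a-2 to Mir150 (0.07 for both). Mirlet7b came nearest to Mir451a (0.01 for both), Mir196b to Mir144 (0.60 against 0.58), and Mir126a to Mir486 (0.13 for both). By level, the neighbour of Mir451a was Mir217, with 122 and 164 CPM, that of Mir223 was Mir218-2, with 143 and 150.2 CPM, and that of Mir142b was Mir320, with 463 CPM in both libraries. Mir500 was nearest in level to Mir155, Mir194-2 to Mir150, Mir450b to Mir144 and Mir196a-1 to Mir486.

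Depth set the counting precision of these values. Library 1 held 4228685 and library 2 held 6039889 sense-strand counts in miRNA genes, out of 7925935 and 11738914 reads. On the own strand of Mir142b, where both libraries had 0 counts, a limit of 3 counts corresponds to 0.709 CPM for library 1 and 0.497 CPM for library 2. Intervals and limits cover counting error alone and leave out the spread between pools. They also treat reads as independent, and PCR copies without molecular identifiers are not independent molecules.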

How the data were processed

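MicroRNA sequencing of 2 neural tube libraries was used, 1 table per library. The authors deposited raw read counts per miRNA gene, as gene quantifications on mm10 with annotation release M4, per the labels' README texts; aligner, counter and adapter trimming: not given in the sources used here. Of the reads, 45.7% and 47.7% named no gene (unmapped, multimapping or outside a gene) and were left out. Identifiers were matched without version to GENCODE M21 symbols (1894 of 1973). Column 3, the strand with the larger total, gave the counts, and column 4 those of Mir142b, whose own-strand count was 0. CPM is counts over the column 3 sum.

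Ratios used TMM sizes (edgeR 4.0.16, R 4.3.3). Each gene with at least 10 counts in each library was compared by a two-sided exact binomial test with Benjamini-Hochberg adjustment at 0.05. The test was tried on simulated Poisson counts. These hold counting error alone, so the trial cannot tell how the test behaves with spread between pools. The common coefficient of variation beyond counting that edgeR estimated between the 2 libraries was 35.1%. Ratios carry exact (Clopper-Pearson) and levels exact Poisson intervals at 95%. DESeq2 1.42.0 size factors, library sizes alone, other filters, both strands, another denominator and leaving out either library were alternatives. Python 3.11.15, scipy 1.17.1 and matplotlib 3.10.9 were used. The members and lists were chosen with earlier results of these data known. Named genes were the members, genes overlapping them on the other strand, the 5 highest opposite-strand counts, the nearest gene to each member in level and in ratio, and fixed lists of markers and of 21 blood-linked genes. Nothing says how the pools were split among litters, and with 1 group of 2 no test between groups exists.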

Additional observations from a re-analysis of the deposited data

Results flagged for a closer look

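Reads on the strand opposite to Mir486, outside the counts used for it, numbered 4 in library 1 and 8 in library 2, above the limit of 3 counts. They lie on the strand of Mir3107.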

How the results depend on the processing

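The calls for the 7 members did not change under library sizes alone, DESeq2 size factors, both strands, no filter or a minimum of 50 counts: 4 were called as higher in library 1 each time, and all 35 ratios of single members under these settings kept their call (the ratios under the other filters were added after seeing the data). Of these, 34 kept their direction. The log2 ratio of Mir451a, which was not called, was -0.0202 with no filter in place of 0.0114. All these settings keep the same test, which holds counting error alone. They cannot tell whether the calls would hold with the spread between pools taken in. The count of all genes called ranged from 172 with library sizes alone to 188 with both strands, against 182. The share called, 50% of 364 genes, was 25.6% of 710 with no filter and 60.2% of 289 at 50 counts, since the filter sets how many genes are tested. Without TMM the median log2 ratio of all genes was 0.031, and 104 genes were called higher in library 1 and 68 in library 2, in place of 94 and 88. With all reads as the denominator the red cell sum was 101 CPM in place of 193, the leukocyte sum 577 in place of 1088 and Mir142b 400.1 in place of 753, because 45.7% and 47.7% of the reads then enter the total. The log2 ratio of leukocyte to red cell counts was 4.03 without Mir451a in place of 2.13, and 0.74 without Mir142b, which is also its value with Mir142b read on its own strand. Without Mir142b, an alternative chosen after seeing the data for the sum, the leukocyte level was 335 CPM in place of 1088. The leukocyte level was 399 CPM without library 1 and 1777 CPM without library 2, and the red cell level 183 and 202.2 CPM. No paired analysis was possible because the samples form 1 group.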
